A study of Sus scrofa with 96 samples.

Results

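The genes described here are 23 genes whose level in the liver followed their level in the testis of the same pig. They were chosen from 25322 Ensembl genes, of which 2286 passed the filters on level and spread. A gene was taken when the Pearson correlation (r) of its liver and testis values over 33 pigs was 0.7 or more, with values as log2(CPM + 0.5), where CPM is a gene's count scaled to all reads assigned to genes in the library. It also needed an SD of 0.4 or more and a median of 1 CPM or more in each tissue and fewer than 8 livers with no counts, and 1497 genes in 1 run of consecutive Ensembl identifiers were left out. The correlations in these 33 pigs therefore chose the genes and are given as a description, without a test.

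Liver and testis are the main organs of boar taint (BT), the off-odour of meat from non-castrated male pigs. The testis makes androstenone, and the liver breaks down both androstenone and skatole, which comes from the gut. The tissues run separate gene programmes, and a gene's level need not rank the animals alike in both. Inherited differences in or near a gene, differences between an animal's alleles and the reference genome on which reads are counted, and body-wide states such as an interferon response are general reasons for such a pattern. Which of these bears on the 23 genes was not tested.

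The animals were 48 non-castrated Landrace males from Denmark, with 1 liver and 1 testis library each. They fell into 3 groups of 16 by high, medium or low genetic merit of BT, which was the sum of the sire's estimated breeding values for skatole in fat and for human nose score. Pigs within a sire group were at most half-siblings, and since merit came from the sire, merit and sire family cannot be told apart. All pigs were slaughtered at about 100 kg, and the liver was sampled at once while the testis was taken after about 1.5 h in a cold room. RNA of good integrity went into stranded mRNA libraries, and less intact RNA into stranded total RNA libraries.

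Of the 34 pigs with mRNA libraries of both tissues, 1 was left out by the rule because its testis library (pig 8308, medium merit) had a median r of 0.769 to the other mRNA testes, where those others had 0.984 to 0.991. The 33 pigs used by the rule were 14 of high merit, 12 of medium and 7 of low. Their testes fell into 2 batches named in the deposited file names, with 13 pigs in batch 1 and 20 in batch 2, the low merit pigs all in batch 1 and the high merit pigs all in batch 2. The libraries held 6834642 to 11697486 assigned reads in liver and 4881825 to 18045966 in testis. Tissue labels went with the markers: ALB, APOA1, TTR and CYP2E1 of hepatocytes summed to 56766 to 214405 CPM in liver and 64.9 to 661 CPM in testis, and PRM1, TNP1, DDX4 and ACRV1 of germ cells to 13726 to 32120 CPM in testis and 0 to 24.3 CPM in liver. The Leydig cell genes CYP17A1 and INSL3 summed to 1480 to 15351 CPM in testis against 0 to 7.36 CPM in liver, and the Sertoli cell genes SOX9 and CLDN11 to 96.8 to 400 CPM against 0.312 to 4.47 CPM.

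Over the 2286 genes the median r between tissues was 0.03, with an interquartile range of -0.11 to 0.16 and a full range of -0.59 to 0.97. No gene had an r of -0.7 or less, and 54 genes reached 0.5 against 4 at -0.5 or less. Of the 23 genes, the highest r were those of NDUFA6 (ENSSSCG00000000045), an accessory subunit of mitochondrial complex I, at 0.97, and of ENSSSCG00000021119 at 0.95. Just inside the threshold lay PUSL1 at 0.730, ENSSSCG00000030474 at 0.725 and ENSSSCG00000027982 at 0.712, and just outside lay ENSSSCG00000023108 at 0.696, ENSSSCG00000001455 at 0.683 and NEB, the muscle protein nebulin, at 0.678. Symbols were known for 6 of the 23 genes, and the others are given by identifier. The other named genes were LYPLAL1, a lysophospholipase-like protein, TAF13, a subunit of the general transcription factor TFIID, ZMAT5, a zinc finger protein of the minor spliceosome, GABARAPL1, which acts in autophagy, and PUSL1, a pseudouridine synthase-like protein.

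**Figure D1:**
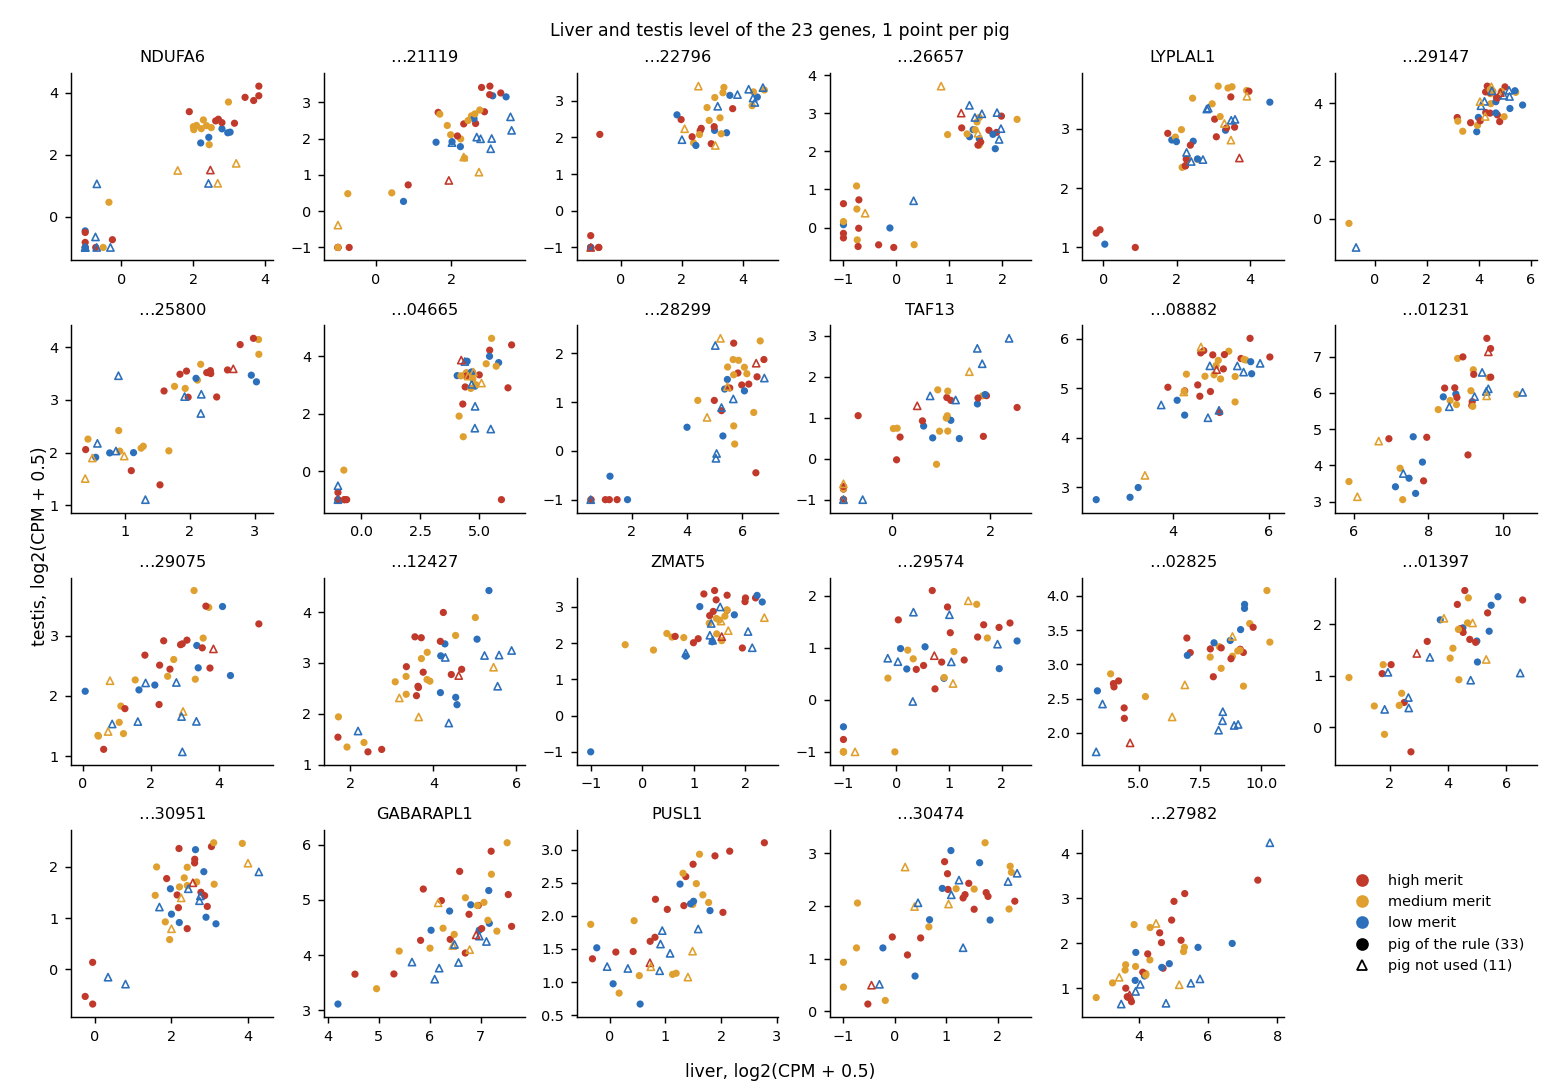
Level of each of the 23 genes in the liver (x axis) and the testis (y axis) of the same pig, both as log2(CPM + 0.5), with 1 point per pig. Filled circles are the 33 pigs that chose the genes, open triangles are 11 pigs that did not, colours give genetic merit, and panels without a symbol carry the last 5 digits of the identifier. NDUFA6, ENSSSCG00000022796, ENSSSCG00000026657 and LYPLAL1 show a gap between pigs of lower and higher level, narrower for the last 2. ENSSSCG00000029147 and ZMAT5 owe part of their r to 1 low pig, and GABARAPL1 and PUSL1 form a continuous cloud.

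The genes differed in how their levels were spread. NDUFA6 ran from 0 to 13.6 CPM in liver with a median of 4.36, and from 0 to 18.1 CPM in testis with a median of 6.64. The 10 pigs below the widest gap in its liver levels were the 10 pigs below the widest gap in its testis levels. ENSSSCG00000026657 ran from 0 to 4.36 CPM in liver and from 0.196 to 7.10 CPM in testis, and the same 15 pigs lay below the gap in both tissues.

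LYPLAL1 ran from 0.373 to 22.9 CPM in liver and from 1.50 to 12.7 CPM in testis, with the same 4 pigs below the gap in each. ENSSSCG00000022796 was below the gap in 8 livers and 7 testes, 7 pigs being shared, and ENSSSCG00000004665 and ENSSSCG00000028299 in 7 livers and 8 testes, again with 7 shared. In these 6 genes the pigs below the gap were almost or wholly the same in both organs, which the choice by r favours. On the log2 scale the liver and testis gaps were 2.13 and 1.86 for NDUFA6, 2.54 and 2.46 for ENSSSCG00000022796, and 4.70 and 1.17 for ENSSSCG00000004665. They were 0.63 and 0.98 for ENSSSCG00000026657, 0.89 and 1.05 for LYPLAL1, and 2.15 and 0.59 for ENSSSCG00000028299. Of the 23 genes, 5 had a gap over 1 in both tissues.

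Other genes rested on few pigs. ENSSSCG00000029147 had an r of 0.86 over all 33 pigs and of 0.54 without pig 8106, in which it was at 0 CPM in liver and 0.391 CPM in testis while the other pigs ran up to 51.2 and 23.6 CPM. ZMAT5 was at 0 in both tissues of pig 8101, and its r of 0.77 fell to 0.63 when 1 pig was left out. ENSSSCG00000008882 had its 3 lowest livers and its 3 lowest testes in the same pigs (9137, 8101 and 8311, all of low merit), at 4.80, 8.13 and 9.21 CPM in liver against a median of 28.5 and at 6.20, 6.43 and 7.45 CPM in testis against a median of 38.0. With any 1 pig left out, 16 of the 23 genes kept an r of 0.7 or more.

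ENSSSCG00000021119 had 6 livers and 5 testes below its widest gaps of 1.13 and 1.27 on the log2 scale, with 5 pigs shared. The widest gaps were narrower in TAF13, at 0.72 in liver and 0.54 in testis (8 and 7 pigs below, with 7 shared). Those of ENSSSCG00000029574 were 0.84 and 0.73 (6 and 7 pigs below, with 6 shared). Both genes had low levels, with liver medians of 1.40 and 1.11 CPM. ENSSSCG00000001231 had the highest level of the 23, with 58.0 to 1319 CPM and a median of 425 in liver and 7.80 to 181 CPM and a median of 53.6 in testis. ENSSSCG00000002825 was the most unequal between the organs, at 9.40 to 1311 CPM in liver, with a median of 329, and at 4.13 to 16.4 CPM in testis, with a median of 8.53. Its liver levels had a gap above the 8 lowest pigs, and its SD on the log2 scale was 2.15 in liver and 0.42 in testis.

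GABARAPL1 lay at 17.8 to 194 CPM in liver, with a median of 103, and at 8.16 to 65.0 CPM in testis, with a median of 23.3. Across the 23 genes the median was higher in liver for 13 and higher in testis for 10, and the SD was smaller in testis for 16. No counts were seen in at least 1 liver for 10 genes and in at least 1 testis for 8.

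The correlations were also described by testis batch and after centring by merit group and batch. These values come from the same 33 pigs that chose the genes, so they are no separate support. All 23 had a positive r within each batch, 21 had 0.5 or more in both and 14 had 0.7 or more in both. With each value centred within its merit group and batch, 22 of the 23 stayed at 0.7 or more and the lowest was 0.69. The lowest r within a batch were those of ENSSSCG00000030951 at 0.30 in batch 1, against 0.83 in batch 2, and of ENSSSCG00000008882 at 0.57 in batch 2, against 0.90 in batch 1. Spearman's rho, which does not weigh how far low pigs lie from the rest, was 0.7 or more for 13 of the 23 and lowest for ENSSSCG00000030951 at 0.46.

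RNA of other cell types was set beside the genes in the same 33 pigs. The r of the 23 testis levels with the summed hepatocyte markers in testis ran from -0.20 to 0.37, and that of the liver levels with the summed germ cell markers in liver from -0.48 to 0.24. ENSSSCG00000028299 and ENSSSCG00000002825, whose liver levels were far above their testis levels, had an r of -0.04 and 0.22 with the hepatocyte markers in testis. For blood genes (HBB, HBM and ALAS2) and the leukocyte gene PTPRC, 3 of the 23 had an r above 0.5 in 1 tissue, which were LYPLAL1 with blood in testis (0.51), GABARAPL1 with PTPRC in testis (0.51) and ENSSSCG00000001397 with PTPRC in liver (0.55); their part in the tracking was not tested.

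A separate set of 11 pigs gave values that the rule had not used. These pigs, 1 of high, 3 of medium and 7 of low merit, had mRNA livers and total RNA testes, with 3728775 to 12156143 assigned reads in liver and 4322626 to 8094404 in testis. Their testes were all of batch 3 in the file names. Testis kit and batch thus cannot be told apart between these pigs and those of the rule. Here the testis level of each gene was regressed on the liver level of the same pig, with residual variances moderated across all 9705 genes tested by limma. A positive slope was called for 5 genes, or 0.0515% of those tested, and 4 of the 22 tested members were among these 5. None of the 2097 other genes that had passed the filters was called, no negative slope was called, and the fifth called gene was ENSSSCG00000027958 (r of 0.97), which had failed the filters. At an unadjusted p under 0.05 the positive slopes numbered 451 over all genes and 15 over the members.

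TAF13 was called with the closest relation. In these 11 pigs it ran from 0 to 4.71 CPM in liver, with a median of 1.20, and from 0 to 7.16 CPM in testis, with a median of 2.20. The livers at 0 or near it and the testes at 0 or near it belonged to the same 4 pigs (1105, 1113, 3102 and 2111), and the liver and testis of pig 1314 were both highest. The slope was 1.20 ± 0.10 (SE, n = 11) log2 units of testis per log2 unit of liver, with an adjusted p of 1.04e-05 by limma, an r of 0.98 (permutation p = 1e-05, the smallest that 100000 resamples can give) as well as a rho of 0.94 (permutation p = 4e-05). Without the 2 pigs farthest from the median liver level its r was 0.97.

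ENSSSCG00000001231 was called as well, with 67.9 to 1469 CPM and a median of 693 in liver and 8.28 to 140 CPM and a median of 59.9 in testis. Its slope was 0.75 ± 0.11 (SE, n = 11; limma adjusted p = 0.00579), its r was 0.88 (permutation p = 0.0013) and its rho was 0.82 (permutation p = 0.00335). Its r without the 2 farthest pigs was 0.79.

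ENSSSCG00000022796 had 0 to 24.8 CPM in liver and 0 to 10.0 CPM in testis, and pig 1331 was at 0 in both. The slope was 0.70 ± 0.10 (SE, n = 11; limma adjusted p = 0.00655) and r was 0.89 (permutation p = 0.00244), with 0.58 left when the 2 farthest pigs were taken out. Its rho was 0.62 (permutation p = 0.0474).

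ENSSSCG00000029147 again rested on 1 pig. Pig 1325 was at 0.104 CPM in liver and at 0 in testis, where the medians were 21.9 and 18.3 CPM. The slope was 0.94 ± 0.07 (SE, n = 11; limma adjusted p = 1.45e-06), with an r of 0.98 (permutation p = 0.00313) over all pigs, and its rho was 0.67 (permutation p = 0.0277). Leaving out the 2 farthest pigs brought r to 0.62. Each set of pigs thus held 1 animal with a very low level in both organs, pig 8106 in the first and pig 1325 in the second. Pig 8308, which was in neither set, was also very low, at 0.182 CPM in liver and 0.390 CPM in testis.

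The other members did not pass the test. Slopes were positive for 22 of 22, and r had a median of 0.69 and a range of 0.22 to 0.98, where the median over the other genes that passed the filters was 0.03 and over all genes tested 0.02. Next in order came ENSSSCG00000021119 (r of 0.90, adjusted p = 0.0616 by limma), ENSSSCG00000030951 (r of 0.91, adjusted p = 0.0643 by limma) and ENSSSCG00000004665 (r of 0.81, adjusted p = 0.0643 by limma). NDUFA6 was not tested because its median in these livers was 0.312 CPM, under the minimum of 1; its r was 0.85 (permutation p = 0.00446, n = 11) and its rho 0.85 (permutation p = 0.00167, n = 11). Without a minimum CPM it was tested and called (slope 0.59, adjusted p = 0.0422 by limma), as were ENSSSCG00000021119 (adjusted p = 0.0368 by limma) and ENSSSCG00000030951 (adjusted p = 0.0422 by limma). The lowest r were those of ENSSSCG00000029075 (0.22), ZMAT5 (0.29), GABARAPL1 (0.32), ENSSSCG00000002825 (0.35), PUSL1 (0.41), ENSSSCG00000001397 (0.42) and LYPLAL1 (0.45), none of which was called. For ENSSSCG00000026657 and ENSSSCG00000004665 the relation rested on the 2 farthest pigs, since r turned from 0.70 to -0.78 and from 0.81 to -0.75 without them.

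**Figure D2:**
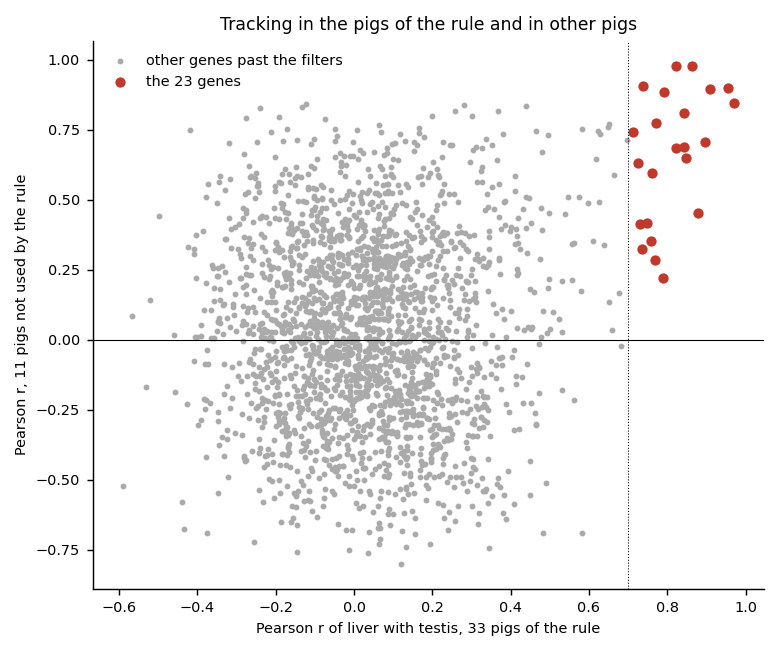
Pearson r of liver with testis in the 33 pigs of the rule (x axis) and in the 11 pigs it did not use (y axis), with 1 point per gene. Red points are the 23 genes, which have a median r of 0.69 on the y axis over the 22 tested there, and grey points are the other genes that passed the filters, with a median of 0.03; the dotted line marks the threshold of 0.7.

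The members also tied the organs of 1 animal together as a profile. Each gene was centred and divided by its SD, and each testis was correlated over the 23 genes with 46 mRNA livers. All livers took the mean and SD of the 33 livers of the rule. Testes took those of their own set, the 33 or the 11 pigs, and the left-out testis those of the 33. In the 33 pigs the testis was closest to the pig's own liver in 32, with an r to it of 0.21 to 0.92 and a median of 0.82, and these pigs had chosen the genes. In the 11 other pigs the testis was closest to its own liver in 10, with an r of 0.30 to 0.83 and a median of 0.68. The exceptions were pig 1326, whose own liver came in place 7 (r of 0.21, against 0.50 for the closest liver), and pig 3102, whose own liver came in place 4 (0.30 against 0.43). Whether both libraries of these 2 pigs came from the pig on their label was not tested. The testis left out by the rule, of pig 8308, had its own liver in place 2 (0.41 against 0.48). Without pig 1326 the rule gave 24 genes, 22 of them among the 23, and without pig 3102 the same number of members, 4, was called in the other pigs; both were run after the data had been seen.

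**Figure D3:**
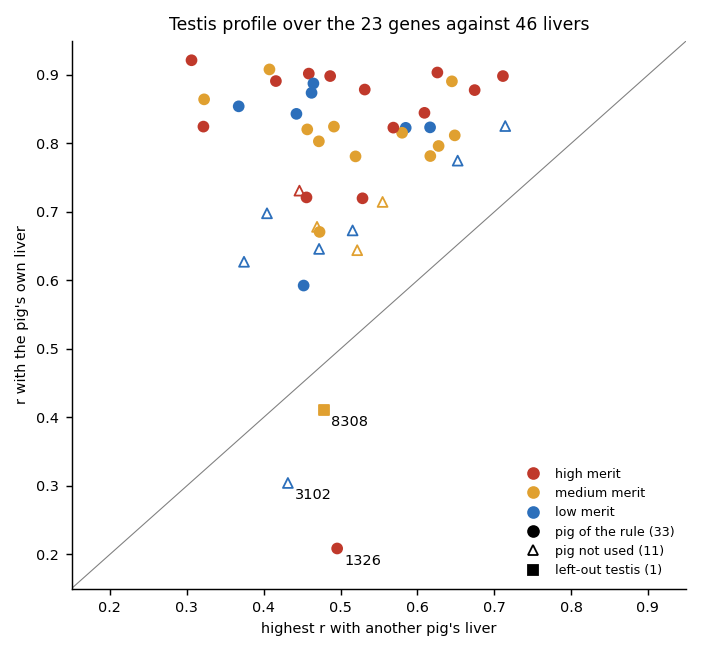
Correlation over the 23 genes of each testis with the liver of the same pig (y axis) against its highest correlation with the liver of any other pig (x axis), for 46 mRNA livers. Points above the line are pigs whose testis was closest to their own liver, which holds for 32 of 33 pigs of the rule and 10 of 11 others; the 3 labelled pigs lie below it.

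Some members moved together or in opposition across pigs in both tissues. Among the 253 pairs of members, 2 had an absolute r of 0.5 or more in both liver and testis, and the median absolute r was 0.13 in liver and 0.15 in testis. The first pair was NDUFA6 and ENSSSCG00000021119, which opposed each other with an r of -0.72 in liver and -0.70 in testis, and of -0.71 in each tissue of the 11 other pigs. The second was ENSSSCG00000025800 and ENSSSCG00000029075, which rose and fell together with 0.84 and 0.81, and with 0.72 and 0.46 in the other pigs.

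The sum of the opposed pair varied less than either gene, at 4.76 to 13.7 CPM in liver and 5.67 to 18.1 CPM in testis. The SD on the log2 scale was 1.70 for NDUFA6 and 1.42 for ENSSSCG00000021119 in liver but 0.37 for the sum of their CPM, and in testis it was 1.84 and 1.44 against 0.41. NDUFA6 made up 0 to 12.0% of that sum in the testis of 10 pigs, 53.4 to 69.3% in 14 pigs and 86.8 to 100.0% in 9 pigs. In the livers of the same groups of pigs it made up 0 to 4.76%, 41.4 to 64.4% and 85.9 to 100.0%, so none of the 33 pigs changed group between organs. The r of the shares between tissues was 0.98 in the 33 pigs and 0.93 in the 11 others, of which pig 3102 differed most, at 2.08% in liver and 30.4% in testis. The groups were drawn after seeing the values, at gaps over 15 percentage points in testis. High, medium and low merit pigs numbered 5, 3 and 2 in the first, 4, 6 and 4 in the second, and 5, 3 and 1 in the third. Among the 11 others, 7 of which were of low merit, the 5 pigs with a share of 0 to 4.55% in testis were all of low merit. With 16 livers per merit group, the NDUFA6 median was 5.36 CPM in high, 3.96 CPM in medium and 0.219 CPM in low merit. The groups overlapped, with 3, 2 and 5 livers at 0 and highest levels of 13.6, 8.64 and 7.62 CPM, in that order. NDUFA6 was not called in any of the merit contrasts of liver given below. Whether the shares differ by merit was not tested.

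A search of 15071 genes with counts in at least 10 pigs of each tissue, made after the members were known, gave 12 members with a partner at an absolute r of 0.6 or more in both tissues. The sign was kept in both tissues of the 11 other pigs for all 12. ENSSSCG00000026657 and ZNF185, an actin-associated LIM domain protein, had an r of -0.90 in liver and -0.93 in testis, and of -0.76 and -0.91 in the other pigs. In 15 pigs the identifier made up 3.70 to 22.5% of their sum in testis and 0 to 18.5% in liver, and in the other 18 it made up 96.4 to 100.0% and 96.3 to 100.0%.

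ENSSSCG00000022796 and DMAC1, which takes part in the assembly of mitochondrial complex I, had an r of -0.67 in liver and -0.73 in testis, and of -0.77 and -0.85 in the other pigs. The identifier made up 0 to 1.75% of their sum in testis in 7 pigs, 44.8 to 66.2% in 16 pigs and 98.2 to 100.0% in 10 pigs. The livers of these pigs gave 0 to 0.820%, 44.0 to 60.3% and 99.4 to 100.0%, apart from pig 1326 of the middle group at 0.952% in liver and 55.2% in testis. DMAC1 and ZNF185 themselves followed between tissues, with an r of 0.96 and 0.95, and were kept out by the filters.

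**Figure D4:**
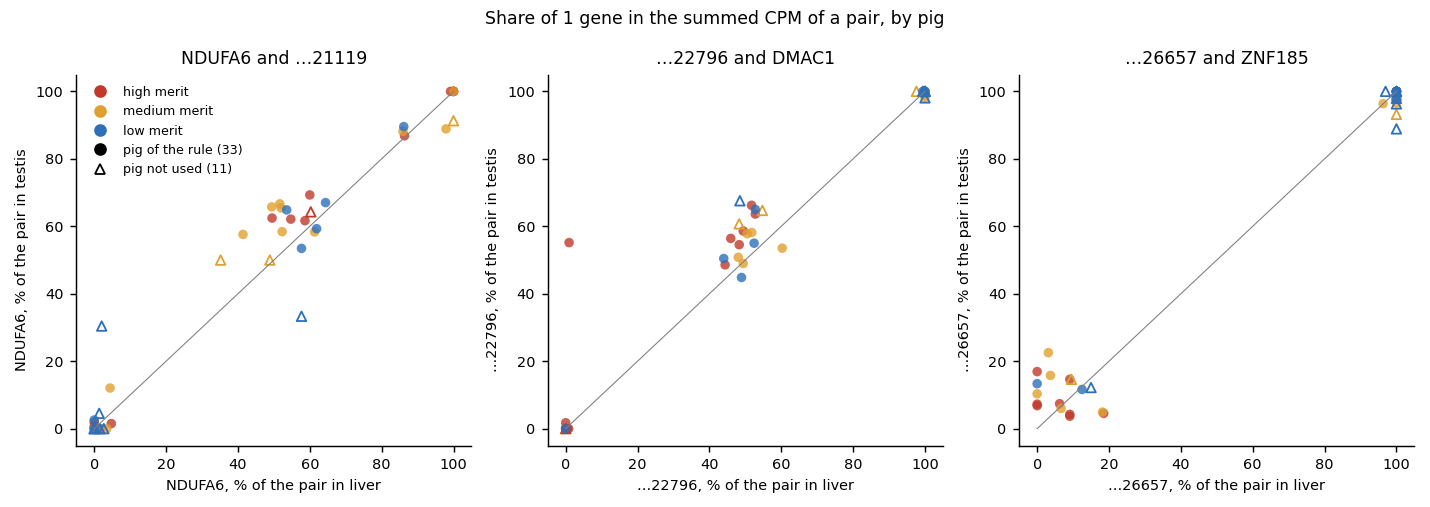
Share of the first gene in the summed CPM of 3 pairs of opposed genes, in percent, in liver (x axis) and testis (y axis) of the same pig, with the line of equal shares. Filled circles are the 33 pigs of the rule and open triangles the 11 others; pigs gather near 0, in the middle and near 100% for the first and second pair and near 0 and 100% for the third, and pig 1326 stands alone at the left of the middle panel.

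Counts of near-identical or overlapping gene models are uncertain, since the counting can split or drop reads that they share. Whether these pairs are such models was not tested.

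ENSSSCG00000027982 went with genes of the interferon response. Its levels were 6.30 to 173 CPM in liver, with a median of 18.6, and 1.12 to 10.1 CPM in testis, with a median of 2.41. Pig 1326 had the highest value in each organ, and r was 0.71 with it and 0.62 without it. All 4 genes of the interferon list that could be matched, IFIT1, MX1, MX2 and RSAD2, correlated positively with it in liver (0.53 to 0.76) and in testis (0.28 to 0.73), and in the livers (0.49 to 0.90) and testes (0.88 to 0.92) of the other pigs. In testes of the pigs of the rule RSAD2 and MX2 lay near the floor, with medians of 0.121 and 0.387 CPM. Between the tissues MX1 itself had an r of 0.42 and IFIT1 of 0.19 in the pigs of the rule, and the 4 genes had 0.44 to 0.62 in the other pigs. The leukocyte gene PTPRC also went with ENSSSCG00000027982, at 0.47 in liver and 0.31 in testis and at 0.52 and 0.72 in the other pigs. In testes of the other pigs so did HLA-DRA (0.75) and MS4A1 of B cells (0.66), while in livers of those pigs their r was 0.06 and 0.46. In those 11 pigs the r of ENSSSCG00000027982 between tissues was 0.74, and 0.16 without the 2 farthest pigs. Pig 1314 had its highest levels, at 220 CPM in liver and 18.3 CPM in testis, where the next testis (pig 2111) had 4.92 CPM. The r with other genes in these pigs were not taken without pig 1314. The part of leukocyte RNA in these correlations was not tested.

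ENSSSCG00000001397 went with ENSSSCG00000001228 (r of 0.92 in liver and 0.67 in testis), ENSSSCG00000030767 (0.87 and 0.72) and ENSSSCG00000001396 (0.75 and 0.72), none of which was a member. ENSSSCG00000012427 went with RPS3A, a ribosomal protein (0.69 and 0.60), and with ATP5IF1, an inhibitor of ATP synthase (0.63 and 0.68), and ZMAT5 was opposed to ENSSSCG00000023608 (-0.78 and -0.73). These correlations are across pigs within a tissue, were picked as the strongest of many and are descriptions.

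None of the 23 genes belonged to the lists of known function that could be matched by symbol. With a median of 1 CPM or more in both tissues, 5 antigen presentation genes had a median r between tissues of 0.18, 13 drug metabolism genes of 0.02, 16 glutathione and aldehyde enzymes of 0.23, 24 ribosomal proteins of 0.07, and 2 interferon genes of 0.30. Single genes at that level were HBB among the blood genes (0.27) and PTPRC among the immune cells (0.09), and over all 9743 genes at that level the median was 0.02. In the 11 other pigs none of the genes of these lists that could be tested was called, which were 5 of 11 antigen presentation genes, 14 of 24 drug metabolism genes, 16 of 22 glutathione and aldehyde enzymes, 24 of 25 ribosomal proteins, 3 of 4 interferon genes, 1 of 3 blood genes and 1 of 3 immune cell genes.

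The study contrasted merit groups, and the members were read off 1 limma fit of all 48 livers, made on voom values and with quality weights for the samples. Between high and low merit, 2 members were lower and none higher, where 3.23% of 12225 genes were lower and 0.131% higher. ENSSSCG00000022796 was at 0 to 12.2 CPM in the 16 high merit livers, with a median of 0.109 and 6 livers at 0, and at 0 to 24.8 CPM in the 16 low merit livers, with a median of 9.82 and 1 liver at 0. The groups overlapped, but most of the high merit livers lay near 0. Among these were pig 1326, at 0.115 CPM in liver but 3.72 CPM in testis, and pig 1306, whose liver library was total RNA. The log2 fold change of ENSSSCG00000022796 was -3.73 ± 0.84 (SE, adjusted p = 0.0161 by limma), against -1.97 with edgeR (adjusted p = 0.243) and -2.003 with DESeq2 (adjusted p = 0.149). With stranded mRNA livers only, 2 members were again lower.

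Against the medium group, in which it ran from 3.75 to 25.7 CPM with a median of 8.54 and no liver at 0, ENSSSCG00000022796 was lower in high merit by -4.08 ± 0.84 (log2, SE; adjusted p = 0.0222 by limma), against -2.001 with edgeR (adjusted p = 0.121) and -2.02 with DESeq2 (adjusted p = 0.0974). It was the only member called between high and medium, where 0.0164% of genes were lower and 0.0818% higher. In testis of batch 2 the same contrast gave -2.97 ± 0.88 (log2, SE), which did not pass (adjusted p = 0.819 by limma). Among the 33 pigs, the 7 in which it made up at most 1.75% of its sum with DMAC1 in testis were 6 of high and 1 of low merit.

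ENSSSCG00000012427 was at 2.75 to 25.1 CPM in high merit livers (median 11.9), 2.78 to 43.2 CPM in medium (median 12.0) and 3.71 to 58.5 CPM in low (median 23.0). The low merit livers were highest on the median, with wide overlap. The log2 fold change was -1.20 ± 0.29 (SE; adjusted p = 0.0182 by limma) for high against low and -1.40 ± 0.30 (SE; adjusted p = 0.00291 by limma) for medium against low. The latter was -0.80 with edgeR (adjusted p = 0.162) and with DESeq2 (adjusted p = 0.117).

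ENSSSCG00000027982 was lower in medium than in low merit livers, by -1.09 ± 0.34 (log2, SE; adjusted p = 0.0227 by limma), with 6.30 to 39.3 CPM (median 16.2) against 10.7 to 220 CPM (median 25.9). Between medium and low merit 14.7% of all genes were lower and 0.908% higher, so 2 lower members of 23 were a smaller share than that of all genes. The direction of those calls depended on the scaling: 111 genes were higher and 1793 lower as reported and 389 and 344 after TMM scaling, and the median log2 fold change of all genes moved from -0.19 to -0.01. For high against low the numbers were 16 and 395, and 37 and 104 after TMM scaling. With edgeR and with DESeq2 no member was called in any liver contrast.

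In testis no member was called. Medium and low merit were compared in batch 1 and high and medium merit in batch 2, since high and low merit testes shared no mRNA batch. The share of genes called was 0% of 14974 in batch 1, in either direction, with 2136 at an unadjusted p under 0.05 by limma, 227 called by DESeq2 and 0 by edgeR. In batch 2 it was 0% higher and 0.00659% lower of 15164. No member thus passed a merit contrast in both organs.

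**Figure D5:**
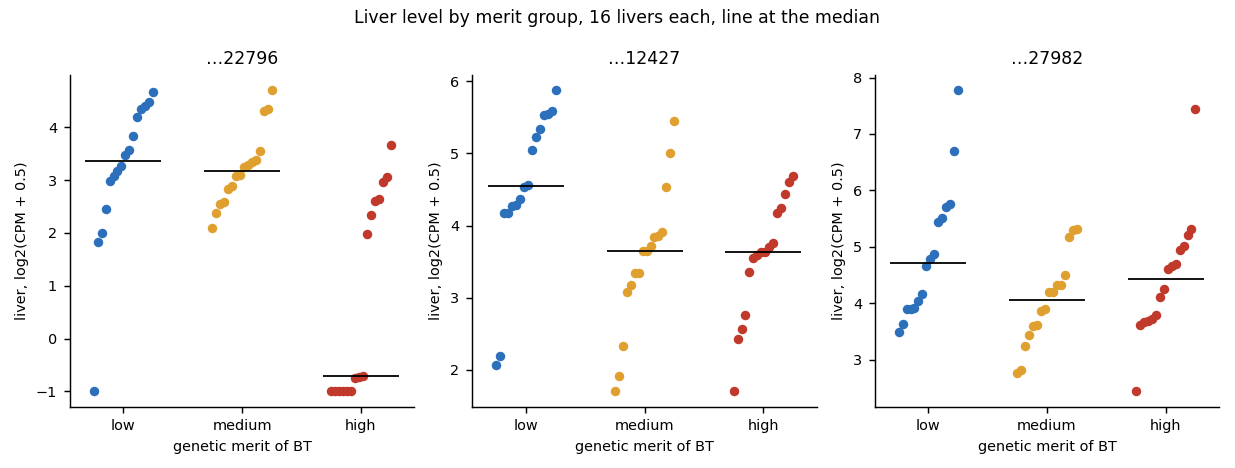
Liver level as log2(CPM + 0.5) of the 3 members called in a merit contrast, with 1 point per liver, 16 livers in each of the low, medium and high merit groups, and a line at the group median. ENSSSCG00000022796 lies near the floor in most high merit livers, while the groups overlap widely for ENSSSCG00000012427 and ENSSSCG00000027982.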

How the data were processed

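Deposited files held HTSeq read counts per Ensembl gene for each of 96 libraries (48 livers, 48 testes). Per the study's methods and the submitters' processing notes, the authors trimmed reads with cutadapt 1.8.1 and Trimmomatic 0.33, aligned them with STAR to Sus scrofa 10.2 (Ensembl 79), used SAMtools 1.3.1 and made these counts with HTSeq 0.6.0 at default parameters; the strand setting was not named, so overlapping and antisense genes are uncertain. Reads not assigned to exactly 1 gene were 25.3 to 71.6% of the uniquely mapped reads and stayed out of library sizes.

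CPM was computed on the sum over genes and used as log2(CPM + 0.5), which understates changes of low genes. Symbols matched 11804 of 25322 identifiers and 6 of the 23 members. All 23 were to be named by a rule (the 25 of highest r). The members, gene lists and tests were chosen with earlier results of these data known.

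For the 11 other pigs, those with an mRNA liver and a total RNA testis with counts on at least 5000 genes, testis level was regressed on liver level per gene, variances were moderated with limma 3.58.1 in R 4.3.3, and p-values were adjusted by Benjamini-Hochberg over all genes with a median CPM of 1 in each tissue. 1 testis with 379942 assigned reads on 940 genes and 2 pigs with total RNA in both tissues stayed out. Permutation tests were two-sided. Merit contrasts used voom with sample quality weights on genes with a mean count above 5 and were called at an adjusted p under 0.05; edgeR 4.0.16 and DESeq2 1.42.0 were alternatives. Scripts were tested on simulated data. The pig is the replicate; half-siblings are not fully independent.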

Additional observations from a re-analysis of the deposited data

Results flagged for a closer look

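In the 7 low merit pigs outside the rule, pig 3102 stood apart from the others in the correlation of its testis with its own liver over the 23 genes, at 0.304 where the other 6 had 0.627 to 0.825. In the 7 low merit pigs of the rule, pig 7312 stood apart at 0.593 where the other 6 had 0.823 to 0.888, although its own liver was still the closest of the 46. Chance alone marks about 1 in 20 groups in this way, and 4 groups were examined. That rate need not hold for the pigs of the rule, because their values chose the genes. Pig 1326 was not flagged, but it was the lowest of the 14 high merit pigs of the rule. Its r was 0.21, where the next lowest had 0.72 and the highest 0.92. Why these pairs of libraries were less alike was not tested.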

How the results depend on the processing

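The rule gave 23 genes, 14 with Spearman's rho in place of r (13 shared), 37 at an r of 0.6, 11 at 0.8, and 18 to 32 under the other 10 settings. With the left-out testis kept it gave 18, all shared. Members called in the 11 other pigs numbered 4, and 7 without a minimum CPM, 2 without moderation, 2 with the low-coverage testis, 2 in low merit pigs only, 2 when centred within merit, and 1 without the 2 farthest pigs (TAF13). Slopes turned negative with the low-coverage testis for ENSSSCG00000002825 (-0.016), ENSSSCG00000008882 (-0.12) and ZMAT5, ENSSSCG00000024279 (-0.77), for ENSSSCG00000029075 in low merit pigs only (-0.046) and when centred (-0.041), and without the 2 farthest pigs for ENSSSCG00000004665 (-1.84), ZMAT5 (-0.40) and ENSSSCG00000026657 (-0.88). The low-coverage testis, of pig 3309, had no counts on any of the 23 genes, while its liver had 44.9 CPM for ENSSSCG00000008882 and 4.67 CPM for ZMAT5. With this testis, each member thus gained 1 pig at 0 in testis. Members called for high against low merit fell from 2 to 0 with edgeR, DESeq2 or no sample weights and to 1 without a minimum count. For medium against low they fell from 2 to 0 with edgeR or DESeq2 and to 1 after TMM or without weights. For high against medium they fell from 1 to 0 with edgeR, DESeq2, TMM or no weights. The testis contrasts gave 0 members in each alternative. The causes were not tested.

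No paired analysis was possible because the merit groups share no pig; the pig number joins the liver and testis of 1 animal and is already the base of every correlation between tissues. Low levels limit TAF13, ENSSSCG00000029574, ENSSSCG00000030474 and ENSSSCG00000026657, whose liver medians were 1.40, 1.11, 1.55 and 1.85 CPM.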
